A study of Mus musculus with 12 samples.

Results

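Among 12 mouse duodenum arrays, 6 carried strong signal of the stomach genes Gkn1, Gkn2, Muc5ac and Tff1 and 6 carried little. These 6 stomach-gene-rich and 6 stomach-gene-poor arrays are compared here across the other genes. The arrays were chosen by those 4 genes: the level of each gene's brightest probe was averaged on each array, and arrays above the midpoint between the highest and the lowest mean (0.53) were called rich. A level is the log2 processed intensity minus the 75th percentile of the same array, so that 0 is that percentile. The rich and poor sets are defined by measured values and are not groups of the study.

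The study gave 3 arrays to each of 4 groups of male mice that crossed genotype (wild type, WT, or Akp3-/-, KO) with treatment (vehicle or the pentapeptide IIAEK). Akp3 encodes a duodenal intestinal alkaline phosphatase (IAP). All mice were 7 weeks old at the start per the design text, and all received 5 g/L sodium carboxymethylcellulose by mouth, alone as vehicle or with IIAEK at 600 mg per kg body weight per day, for 14 days and fasted for 8 h before the duodenum was taken. The titles and the design text give the 14 days, whereas the source labels of the IIAEK samples give longer times. How the Akp3 allele was made, on which strain background, and how much of the duodenum was taken are not given in the sources used here. Akp3 lay between 1.05 and 2.72 on the WT arrays and between -4.90 and -3.80 on the KO arrays, so it went with the genotype labels on every array. The labels and files do not say whether its probe lies in the altered part.

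Gastrokines (Gkn1, Gkn2), the mucin Muc5ac and its partner trefoil peptide Tff1 are secreted by the surface mucous cells of the stomach. The pylorus, a muscular ring, joins the stomach to the duodenum, and the first stretch of the duodenum holds Brunner glands, whose mucus shares components with that of the deep gastric glands. Acid-secreting parietal cells and enzyme-secreting chief cells are found mainly in the body of the stomach, and gastrin-secreting G cells in its antrum.

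The rich arrays were WT vehicle 1, 2 and 3 (means of 3.58, 3.37 and 3.76 over the 4 genes), WT IIAEK 3 (5.50), KO vehicle 1 (3.36) and KO IIAEK 3 (4.87). The poor arrays were WT IIAEK 1 and 2 (-2.11 and -3.81), KO vehicle 2 and 3 (-4.15 and -4.25) and KO IIAEK 1 and 2 (-4.18 and -4.43). The rich array nearest the midpoint stood at 3.36 and the poor array nearest to it at -2.11. Every array kept its side when the split was made again with normexp background correction, quantile normalization, the array median, the authors' deposited value table or the mean of a gene's probes (12 of 12 arrays each).

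**Figure D1:**
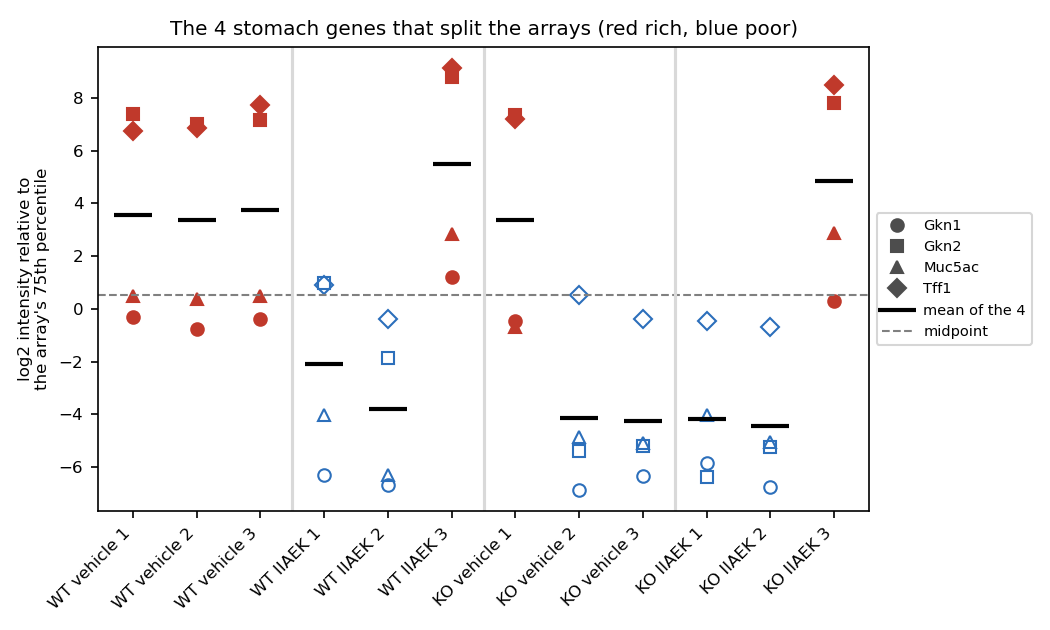
Levels of the 4 genes that define the split on each of the 12 arrays (y axis, log2 intensity relative to the array's 75th percentile), with the mean of the 4 as a black bar and the midpoint as a dashed line; red filled symbols are rich arrays and blue open symbols poor ones. The array means leave a gap between -2.11 and 3.36, and Gkn2 on WT IIAEK 1 (0.97) lies above its level on the other poor arrays.

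The 4 defining genes are described without a test of rich against poor arrays. Gkn1 was well above background on the 6 rich arrays and on 0 of the 6 poor ones, at -0.76, -0.34 and 1.21 (lowest, median and highest rich array), and was at least 24.4-fold higher on the rich arrays. That bound sets the rich mean against the lowest signal that counted as well above background on each poor array, without adjustment for group, as do all later bounds. Gkn2 stood at 7.02, 7.37 and 8.80 on the rich arrays. On the poor arrays it was 0.97 and -1.88 in WT IIAEK 1 and 2 but -5.38, -5.20, -6.40 and -5.25 in the 4 KO arrays. Muc5ac ranged from -0.67 to 2.88 on rich and from -6.29 to -4.01 on poor arrays. Tff1 ranged from 6.74 to 9.14 and from -0.67 to 0.91, and was well above background on all 12. The poor arrays thus differed among themselves mainly in Gkn2, and WT IIAEK 3 and KO IIAEK 3 were the highest rich arrays in each of the 4 genes.

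The sequences just upstream of some genes that were higher on the rich arrays are shown so that the gastrokine cluster, gastrin, progastricsin and the Mup copies described below can be seen side by side. They are the 120 bases before the annotated start, from RefSeq on GRCm38.p6, 5′ to 3′ on the gene's strand. Of 14 genes looked up, 9 had an entry. Gkn1 (chr6:87350916-87351035, minus strand), Gkn2 (chr6:87373245-87373364, plus) and Gkn3 (chr6:87388936-87389055, minus) start within 38.0 kb of each other. Gast lies at chr11:100334287-100334406 (plus) and Pgc at chr17:47726722-47726841 (plus). Capitals mark the string TATANA, where N is any base and which resembles a core promoter element, or the string GATAA, which GATA factors can bind, on either strand. The search was first for TATAAA and was widened to TATANA after the Mup windows had been read. The narrower string occurs in 6.34%, the wider one, which includes it, in 11% and GATAA in 10.5% of the 32851 RefSeq windows of the same length.
Gkn1: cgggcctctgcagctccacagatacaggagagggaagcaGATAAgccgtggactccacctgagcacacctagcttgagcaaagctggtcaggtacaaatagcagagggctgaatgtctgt
Gkn2: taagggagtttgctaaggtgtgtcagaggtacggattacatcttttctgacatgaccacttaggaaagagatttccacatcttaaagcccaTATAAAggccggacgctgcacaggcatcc
Gkn3: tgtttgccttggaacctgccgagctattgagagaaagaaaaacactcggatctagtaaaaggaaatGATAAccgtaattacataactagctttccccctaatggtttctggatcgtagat
Gast: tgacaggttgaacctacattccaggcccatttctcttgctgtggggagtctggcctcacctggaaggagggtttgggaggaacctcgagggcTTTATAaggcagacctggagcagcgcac
Pgc: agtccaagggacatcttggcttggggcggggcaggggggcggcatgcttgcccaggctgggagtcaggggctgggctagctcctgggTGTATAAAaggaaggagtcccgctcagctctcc
Gkn2, Gast and Pgc hold TATAAA on one strand or the other, while Gkn1 and Gkn3 hold GATAA and no TATANA. A match here is a string, not a measured binding site.

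The labels place the rich arrays unevenly. All 3 WT vehicle arrays were rich, whereas WT IIAEK, KO vehicle and KO IIAEK each held 1 rich and 2 poor arrays. A model that adjusts for group therefore draws the rich-minus-poor difference from the latter 3 groups, and WT vehicle adds only to the estimate of the spread. Slide 1 held 3 rich and 4 poor arrays and slide 2 held 3 rich and 2 poor. In each of the 3 mixed groups the lone rich array was on the other slide from its 2 poor mates: WT IIAEK 3 and KO IIAEK 3 were on slide 2 with their mates on slide 1, and KO vehicle 1 was on slide 1 with its mates on slide 2. On slide 1 the rich arrays were exactly the vehicle arrays, so there the split and the treatment cannot be told apart. On slide 2 the poor arrays were exactly the KO vehicle arrays, so there the split and that group cannot be told apart. In the first 2 columns of positions on the slides 5 of 5 arrays were rich, against 1 of 7 in the other columns.

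Some arrays stood apart in other tissues' genes. The mean of the pancreas list was 1.87 on WT vehicle 1 and between 6.20 and 8.41 on the other 11 arrays. KO IIAEK 3 had the highest mean of smooth muscle genes (3.22, against 1.53 to 2.58 elsewhere) and the lowest of brush border enzymes (3.47, against 3.91 to 4.43). Each array detected 55.9% to 64.0% of its probes above background. In whole tissue, fewer cells of a type and less RNA per cell cannot be told apart.

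Across the 26103 features other than the 4 defining genes, 231 were higher on the rich arrays (0.885%) and 15 were lower (0.0575%) at a Benjamini-Hochberg adjusted p under 0.05 (limma, adjusted for the 4 groups, two-sided). Since the arrays were sorted by values measured on them, these p-values say how a gene goes with the split on these 12 arrays, not what a treatment does. The labels do not say that the samples came from separate litters or days, so the spread may be partly technical. Of the 231, 197 were named genes. All 231 higher and all 15 lower features had the same sign within each of the 3 mixed groups. The fitted difference averages these 3 groups, and disagreement between them widens the spread, so a call itself favours such agreement. The difference exceeded 1 (log2) for 186 and 3 for 56 of the higher features, and 33 were not well above background on any poor array. The median over all features was -0.04, with a median standard error (SE) of 0.194. Without any model, the 6 rich arrays lay wholly above the 6 poor ones for 415 features (1.59%) and wholly below for 267 (1.02%), and 207 of the 231 and 8 of the 15 were among these. At an unadjusted p under 0.05 the balance was the other way, with 1940 features higher and 2302 lower. A feature was tested if it was well above background on all 3 arrays of a study group, and since WT vehicle was all rich and no group all poor, this could let in genes seen only on rich arrays but none seen only on poor ones. Of the features tested, 363 passed through WT vehicle alone, and 55 of the 231 and 0 of the 15 were among them, so a higher level on the rich arrays was partly fixed by the filter for those 55. Of the 25740 features that passed through a mixed group, 176 were called higher and 15 lower. With probes well above background on any 3 arrays, a filter added after seeing the data, 247 were called higher and 16 lower, and with probes well above it on all 12 arrays 131 and 9.

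The count depended on single arrays. It was 96 higher features without WT IIAEK 3, 120 without KO IIAEK 3, 149 without KO IIAEK 2 and 2908 without KO vehicle 1. Without KO vehicle 1, all the rich arrays left in mixed groups are on slide 2 and their mates on slide 1, and with slide added to that fit 64 features were called, 50 of them among the 231. Without both WT vehicle 1 and KO IIAEK 3, the arrays that stood apart, 97 features were called higher, 96 of them among the 231. The lower count ranged from 1 (without WT IIAEK 2, WT IIAEK 3 or KO IIAEK 2) to 3637 (without KO vehicle 1).

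**Figure D2:**
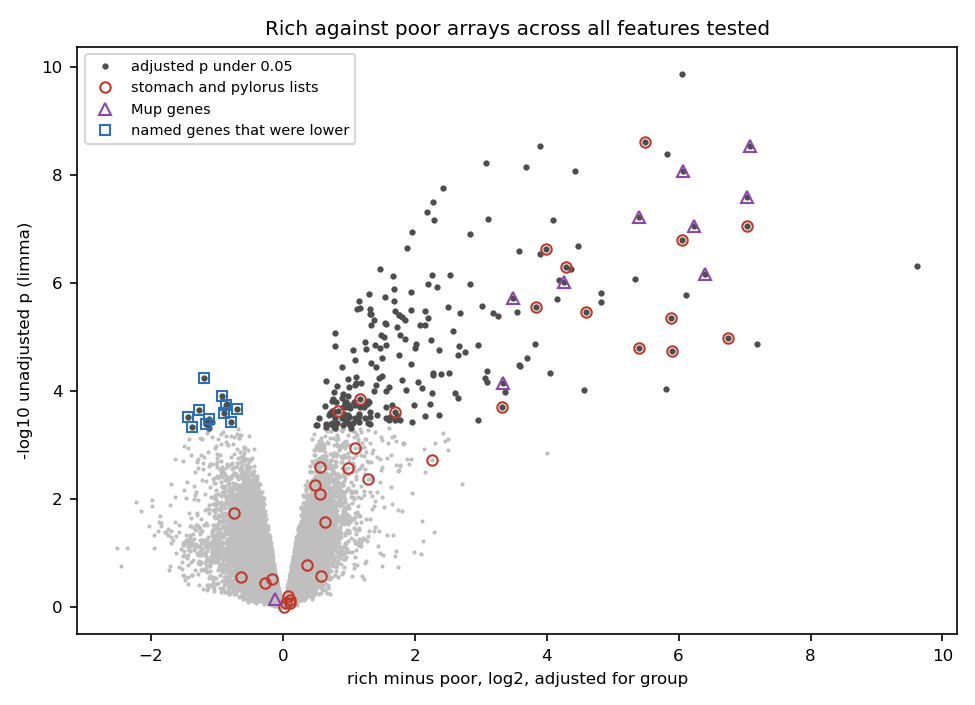
Rich-minus-poor difference (x axis, log2, adjusted for group) against -log10 of the unadjusted limma p (y axis) for the 26103 features. The 246 called features are dark points; the 15 called stomach and pylorus list genes (among the red circles) and 9 of 10 Mup genes (purple triangles) lie on the right, and the 11 named lower genes (blue squares) lie between -1.44 and -0.69.

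Genes of the stomach other than the defining 4 are of the same kind as those that made the split, so their differences are given as a description and support nothing. Of these genes, Psca, Vsig1, A4gnt, Pgc, Gast and Six2 passed the filter through the all-rich WT vehicle group alone. Their higher level on the rich arrays was thus partly fixed by the filter, here and in the counts below. In the list of surface mucous cell genes, 5 of 10 were called higher and 0 lower, with a median difference of 1.23. Over all features 0.885% were called higher and 0.0575% lower, and of the 363 that passed through WT vehicle alone 55 were called higher. Psca, a surface glycoprotein gene, was not well above background on any poor array and was at least 25.3-fold higher on the rich ones. Anxa10, an annexin, stood at 3.31, 3.78 and 4.92 (lowest, median, highest) on the rich arrays and at -1.91, -1.13 and -0.53 on the poor, a difference of 5.49 ± 0.29 (SE). The groups of arrays did not overlap. Vsig1, an adhesion protein of gastric epithelium, was well above background on all 6 rich arrays but on only 1 poor one, so the size of its difference was not measured. Ctse, the aspartic protease cathepsin E, differed by 3.99 ± 0.34. The difference for Sult1c2, a sulfotransferase, was 1.17 ± 0.20, with overlapping arrays. Muc1, a membrane mucin also made by other epithelia, differed by 0.02 ± 0.72, and Cldn18, a tight junction protein, by 1.09 ± 0.24 without being called. Capn8 and Capn9, calpain proteases of gastric mucous cells, and Aldh3a1, an aldehyde dehydrogenase, differed by 1.29, 0.57 and 0.58 and were not called.

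In the list of neck cell and Brunner gland mucous genes, 4 of the 5 members that passed the filter were called higher, with a median of 4.60 that includes poor levels at background. Tff2, the trefoil peptide of these glands, had the levels 9.28, 9.83 and 10.1 on rich and 5.16, 5.80 and 7.91 on poor arrays, so it was bright on all 12. Its difference was 3.84 ± 0.42. Gkn3, another gastrokine, stood at 8.89, 9.50 and 9.82 against 2.18, 3.74 and 7.23, a difference of 5.40 ± 0.71. Both genes had their highest poor level on KO vehicle 2. Aqp5, a water channel, differed by 5.90 ± 0.79. A4gnt, the enzyme that caps the sugar chains of gland mucins, was well above background on 6 rich arrays and 1 poor one. Egf, also made in Brunner glands, differed by -0.64 ± 0.55 and was not called. Bpifb1 was well above background on 3 rich and 4 poor arrays and did not pass the filter, and Muc6 had no named probe.

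Genes of the acid- and enzyme-secreting cells were divided. Pgc, the pepsinogen progastricsin, ranged from -0.37 to 2.72 on the rich arrays and was well above background on 1 of the 6 poor ones, where the highest level was -3.09, so the size of its difference was not measured. Cblif, gastric intrinsic factor, differed by 1.70 ± 0.31. Pga5, another pepsinogen gene, differed by 0.05 ± 0.21, and the chief cell genes Chia1 and Lipf were not well above background on any of the 12 arrays. Atp4a and Atp4b, the 2 subunits of the proton pump that defines parietal cells, were also not well above background on any array. Kcne2, a potassium channel subunit of parietal cells, was well above background on 5 rich and 0 poor arrays and did not pass the filter. Slc9a4, a sodium-hydrogen exchanger, differed by 3.32 ± 0.59, with 3 of 6 poor arrays well above background. The water channel Aqp4, the potassium channel Kcnq1 and the nuclear receptor Esrrg, of the same list, differed by -0.74, 0.64 and -0.17 and were not called, and the anion transporter Slc26a7 did not pass the filter (3 rich and 1 poor arrays well above background). The rich arrays thus carried surface, neck and Pgc transcripts while the proton pump genes stayed at background.

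Gast, which encodes gastrin, was well above background on 6 rich and 0 poor arrays, at least 24.4-fold higher. It was brightest on WT IIAEK 3 (2.04) and KO IIAEK 3 (1.86) and lay between -1.80 and -0.52 on the other rich arrays. The other endocrine genes Ghrl (ghrelin), Hdc, Slc18a2 and Sst (somatostatin) were not called, with differences from -0.26 to 0.50. Six2, a homeobox gene of the pyloric mesenchyme, was at least 3.39-fold higher on the rich arrays, and Isl1, another, differed by 0.83 ± 0.15. Barx1 and Nkx2-5, also of stomach or pyloric mesenchyme, were well above background on 2 rich arrays each and 0 poor ones. Gata3 and Osr1 differed by 0.07 and 0.12, and Nkx3-2 was well above background on 1 rich and 2 poor arrays. Of the gastric transcription factors, Nkx6-3 stood wholly higher on the rich arrays (2.27 ± 0.55) without being called, and Sox2 was well above background on 3 rich and 0 poor arrays. Sox21 and Foxq1 differed by 0.995 and 0.571 without being called. Of the Irx genes, Irx2 and Irx5 were at background on all 12 arrays and Irx3 was well above it on 1 rich array. In the list of squamous forestomach genes 0 of the 6 tested were called.

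**Figure D3:**
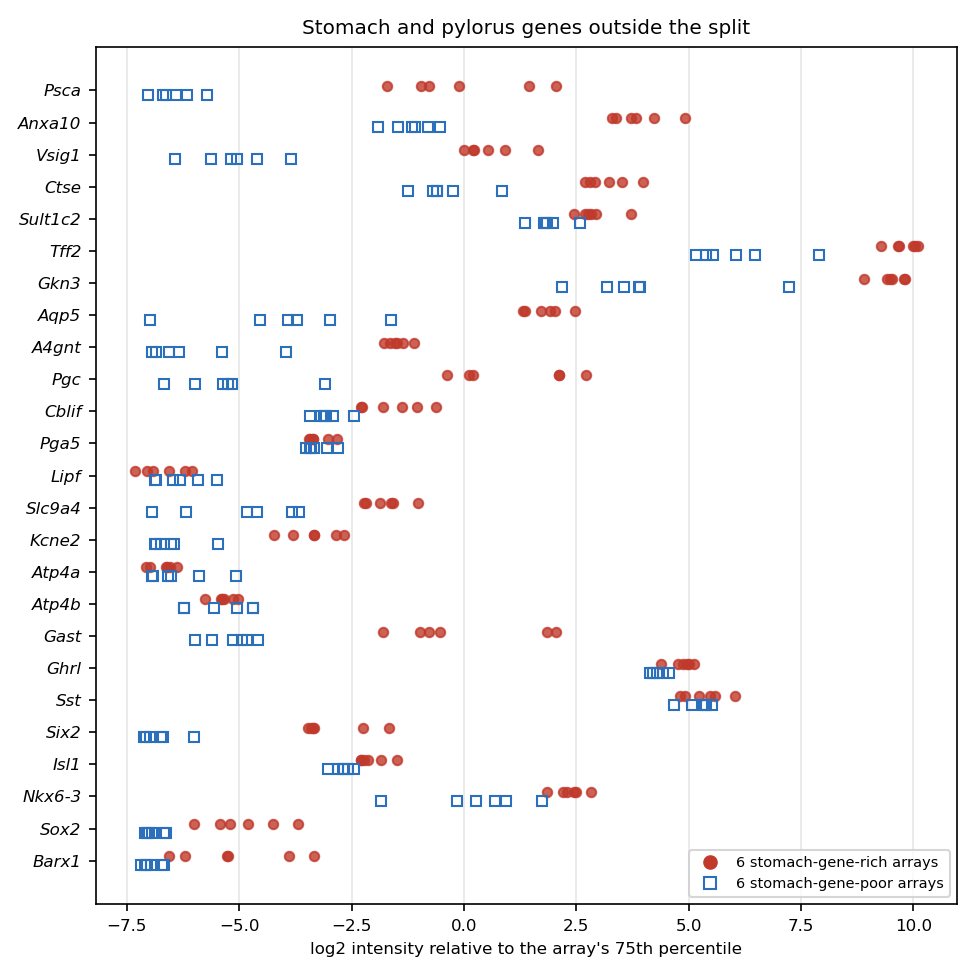
Levels of 25 stomach and pylorus genes outside the split (x axis, log2 intensity relative to the array's 75th percentile), with 1 symbol per array, red for the 6 rich and blue for the 6 poor. Psca, Anxa10, Vsig1, Tff2, Pgc, Gast and Six2 do not overlap between the sets, whereas Atp4a, Atp4b, Lipf and Pga5 do. Psca, Vsig1, A4gnt, Pgc, Gast and Six2 passed the filter through the all-rich WT vehicle group alone.

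Outside the stomach lists, the genes with the highest fitted differences included Mucl3, a mucin-like gene, and major urinary protein (Mup) genes, which encode pheromone-binding lipocalins known mainly from liver. Many of them were at or near background on the poor arrays, where levels have no order, so the order of their differences is not read. Mucl3 stood at 3.47, 4.02 and 5.42 on the rich arrays and was well above background on 2 of the 6 poor ones, whose highest level was -2.36. Of 10 Mup genes tested, 9 were called higher on the rich arrays, where 0.885% of all features were. However, 8 of these 9 and Mucl3 passed the filter through the all-rich WT vehicle group alone. Of all 363 features that did so, 55 were called higher, so 0.885% is not the share to set beside them. The direction of these 8 and of Mucl3 was thus partly fixed by the filter, and no p is given for them. Mup18 stood at -1.05, 1.26 and 2.16 on rich arrays, was not well above background on any poor array and was at least 51.3-fold higher. By their brightest probes Mup1, Mup21, Mup17 and Mup20 were likewise at least 44.8-, 48.8-, 31.2- and 14.1-fold higher. The lowest rich array was KO vehicle 1 for each of these 5. The bounds need not hold for other probes. A dimmer Mup20 probe differed by 2.33 (log2, without adjustment for group) and was well above background on 6 rich and 3 poor arrays. A dimmer Mup21 probe was well above it on 0 rich and 0 poor arrays. Mup3 differed by -0.13 ± 0.32 (limma adjusted p = 0.837).

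Some Mup genes are close copies of each other, and a probe may catch several, so which copy was measured is uncertain. The starts of 3 of them show the likeness, which need not hold for the other Mup genes. Mup21 also had an entry, which is not shown. Mup17 (chr4:61595833-61595952, minus strand), Mup18 (chr4:61674095-61674214, minus) and Mup19 (chr4:61782225-61782344, minus) are given as above, and the 120-base windows of Mup17 and Mup19 were 96.6% identical where they align, those of Mup17 and Mup18 87.5%, and those of Mup18 and Mup19 87.1%.
Mup17: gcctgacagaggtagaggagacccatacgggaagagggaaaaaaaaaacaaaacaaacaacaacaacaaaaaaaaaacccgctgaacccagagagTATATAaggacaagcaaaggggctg
Mup18: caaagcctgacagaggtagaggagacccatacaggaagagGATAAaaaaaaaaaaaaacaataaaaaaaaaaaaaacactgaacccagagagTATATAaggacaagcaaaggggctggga
Mup19: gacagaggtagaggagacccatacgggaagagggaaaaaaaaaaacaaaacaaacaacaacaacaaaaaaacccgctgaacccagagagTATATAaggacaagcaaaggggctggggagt
All 3 windows share TATATA, the string that the wider motif was made to catch. The liver list is given beside them, and its part was not tested. Of the 5 liver list genes tested, 3 lay above 0 and 2 below. Ttr, a thyroid hormone carrier, was higher (1.49 ± 0.19, limma adjusted p = 0.00282). Serpina1a was lower in value (-0.76 ± 0.31) without being called, and Alb, albumin, differed by 0.17. Fga, of the same list, was at background on all 12 arrays. The mean of the liver list ran from -1.67 to 0.80 on rich and from -1.77 to -0.80 on poor arrays.

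The other genes of this kind were Teddm3 (a difference of 6.05 ± 0.24, limma adjusted p = 3.4e-06), the uncharacterised 2310057J18Rik (5.81 ± 0.94, 0.0166) and the prosaposin-like Psapl1 (4.83 ± 0.51, 0.00109), which were well above background on 4, 6 and 5 of the 6 poor arrays. Nkx6-2, a homeobox transcription factor, and Cysrt1 were well above it on 6 rich arrays and 1 poor array each and passed the filter through WT vehicle alone, so no size or p is given for them. None of the rich arrays of these 5 genes overlapped with a poor one. The rich arrays also lay wholly above the poor ones for 207 of the 231 features called higher, and for 1.59% of all features. Teddm3 was even among the arrays, at 0.19 to 2.39 on rich and -5.21 to -4.10 on poor ones. The 2310057J18Rik transcript varied more, with a poor range of -3.32 to 3.16, and its call was lost without WT IIAEK 3 or without KO IIAEK 3 (adjusted p of up to 0.172).

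**Figure D4:**
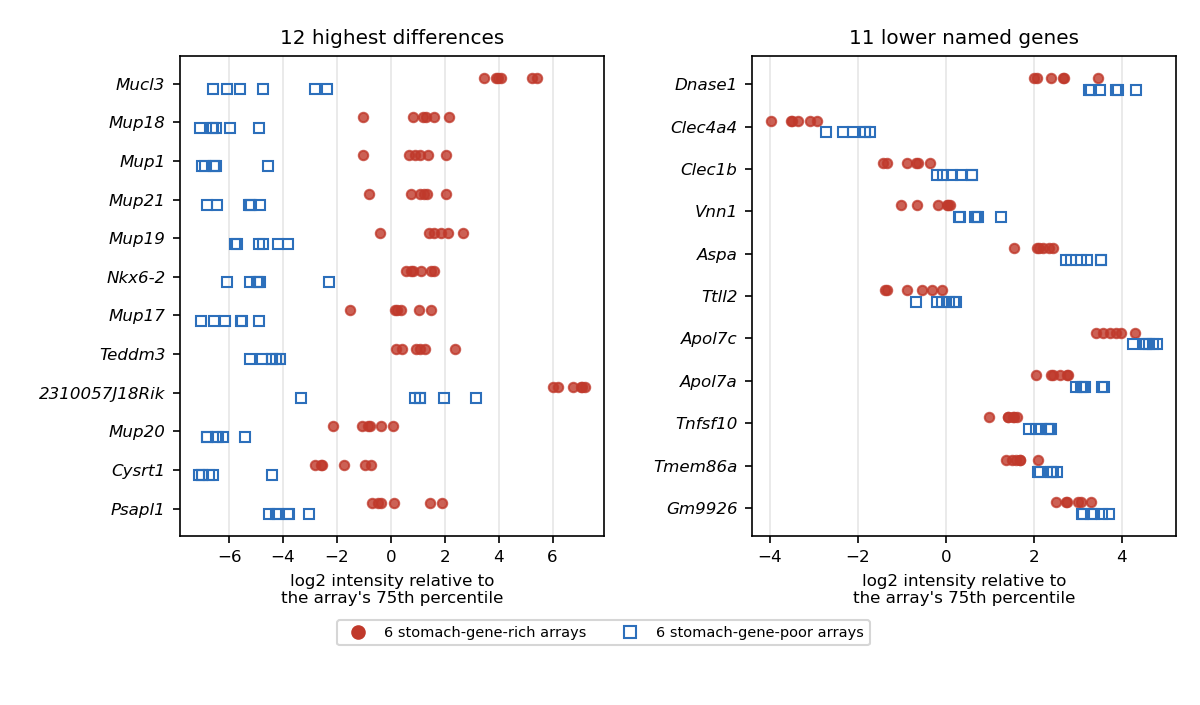
Levels on the 6 rich (red) and 6 poor (blue) arrays of the 12 genes with the highest differences outside the stomach lists (left) and of the 11 named genes that were lower (right); x axes are log2 intensity relative to the array's 75th percentile. The left sets do not overlap, although the poor levels of most of these genes lie at background, while on the right the sets lie close together, as for Vnn1 (-1.02 to 0.09 against 0.31 to 1.24).

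The 11 named genes lower on the rich arrays had small differences. Vnn1, an enzyme that releases pantothenate, stood at -1.02, -0.07 and 0.09 on rich and at 0.31, 0.69 and 1.24 on poor arrays, a difference of -1.20 ± 0.18 (limma adjusted p = 0.0116). Dnase1, a secreted DNA-degrading enzyme, differed by -1.44 ± 0.27 (0.0381). The lectin receptor genes Clec4a4 and Clec1b differed by -1.37 and -1.27, and the apolipoprotein L genes Apol7c and Apol7a by -0.92 and -0.89. Aspa, Ttll2, Tnfsf10 (the death ligand TRAIL), Tmem86a and Gm9926 differed by -1.17, -1.12, -0.86, -0.78 and -0.69. When each of the 12 arrays was left out in turn, every one of the 11 lost its call in at least 2 cases. Vnn1 lost it without WT IIAEK 3 and without KO IIAEK 3, and Clec4a4 and Ttll2 lost it in 10 of 12 cases.

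In the epithelial lists of the duodenum, calls fell in the goblet cell list (2 of 11 tested), the bicarbonate and chloride transport list (3 of 11), the tuft cell list (2 of 4) and the stem cell list (1 of 7). All of these were higher, and over all features 0.885% were called higher. Of the 11 goblet cell genes, Spdef, a transcription factor of mucous secretory cells, was higher (1.76 ± 0.20, limma adjusted p = 0.00148), at 3.75, 4.08 and 4.56 on rich and 1.98, 2.31 and 2.86 on poor arrays. Agr2, a disulfide isomerase that helps fold mucins, was also higher (1.62 ± 0.30, 0.0379), but that call was lost in 9 of 12 cases when 1 array was left out. Muc2, the intestinal gel mucin, differed by 0.27 ± 0.15 (0.356). Spdef and Agr2 are also expressed by gastric and Brunner mucous cells. Of the 11 bicarbonate and chloride transport genes 3 were higher. Cftr, the chloride channel, stood at 4.74, 4.83 and 5.28 on rich and 3.70, 3.79 and 4.24 on poor arrays (1.09 ± 0.15, limma adjusted p = 0.00613). Car2, a carbonic anhydrase, differed by 1.71 ± 0.33 (0.0402). Slc26a9, a chloride transporter also expressed in stomach, was at least 1.58-fold higher, having passed the filter through WT vehicle alone, and lost its call in 7 of 12 cases. Cftr lost it without WT IIAEK 3 (0.0564).

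Called higher too were 2 of the 4 tuft cell genes tested, Avil (1.86 ± 0.30, limma adjusted p = 0.0171) and Alox5ap (0.76 ± 0.13, 0.023), the stem cell list gene Prom1 (1.15 ± 0.22, 0.0432) and the fast muscle troponin Tnni2 (1.51 ± 0.21, 0.00582). The tuft cell genes Dclk1 and Trpm5 differed by -0.12 and 0.04, and the stem cell gene Lgr5 by -0.04. Mylpf, of the same skeletal muscle list as Tnni2, went the other way (-0.58 ± 0.26) without being called. Without 1 array, Prom1 lost its call in 10 of 12 cases, Alox5ap in 5, and Avil and Tnni2 in 2 each, both WT IIAEK 3 and KO IIAEK 3. Outside the stomach lists and those named so far, 0 list members were called in either direction.

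Genes of absorptive cells were not called. Of the 15 brush border enzymes tested 13 lay below 0, with a median difference of -0.53 against -0.04 over all features. Dpp4, a dipeptidase, stood at 1.71, 2.54 and 2.77 on rich and 2.91, 3.34 and 3.59 on poor arrays (-1.01 ± 0.23, limma adjusted p = 0.078). All 13 drug metabolism genes tested lay below 0 (median -0.63), among them Cyp3a25 (-1.12 ± 0.30, limma adjusted p = 0.15), and 16 of 18 oxidative phosphorylation genes did (median -0.40). The intestinal transcription factors were divided, with 6 above and 6 below 0 and a median of -0.01. Those with the smallest p were Pdx1 (0.69 ± 0.19) and Hnf4g (-0.91 ± 0.26), the highest and the lowest of the list, and neither was called. Cdx2, which specifies intestinal identity, differed by 0.01 ± 0.16. Of the iron and calcium uptake genes, Cybrd1 and Trpv6 differed by 1.84 ± 0.40 and 1.89 ± 0.45 (limma adjusted p = 0.0731 and 0.108).

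Cells of the wall and of blood gave 0 calls apart from Tnni2, and the genes with the smallest p in each list are given with their differences. Ano1, a chloride channel of the gut's pacemaker cells, came closest, at 1.93, 2.09 and 2.43 on rich and 1.53, 1.55 and 1.78 on poor arrays (0.68 ± 0.14, limma adjusted p = 0.0534), and Snap25, a synaptic protein of the same list, differed by -0.35. The smooth muscle genes Tagln and Lmod1 differed by 0.63 and 0.93, with KO IIAEK 3 the highest array for Tagln (6.32). Of the matrix genes Postn and Dcn, which encode periostin and decorin, the first differed by 0.63 and the other by -0.50. The endothelial genes Lyve1 and Vwf differed by -0.26 and 0.58, and the mesothelial genes Msln and Upk1b by -1.38 and -0.22. Plasma cell genes lay lower, with 6 of 7 below 0 and a median of -0.42, as in Jchain, the antibody joining chain (-0.56 ± 0.20, limma adjusted p = 0.258), and Tnfrsf17 (-0.55). The B-cell genes Pax5 and Bank1 differed by 0.62 and -0.57, and the T-cell genes Gzma and Cd247 by -0.72 and -0.53. The macrophage genes Adgre1 and Itgam differed by -0.53 and -0.31, the mast cell protease Mcpt2 by 1.32 and the eosinophil receptor Siglecf by -0.46. The fat cell genes Fabp4 and Retn differed by -0.13 and 0.39, and the red cell genes Alas2 and Hba-a1 by -0.08 and 0.01.

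In the enteroendocrine, Paneth cell, cell cycle, interferon, early response, and glucocorticoid and fasting lists 0 members were called. Nts, neurotensin, a hormone of the more distal small intestine, was lower in value (-1.99 ± 0.64, limma adjusted p = 0.228), at -3.63, -2.33 and -0.82 on rich and -1.37, -0.22 and 0.08 on poor arrays, which overlap. Neurog3, the transcription factor of endocrine precursors, differed by 0.77. The Paneth cell genes Lyz1 and Ang4 differed by -0.28 and -0.38, the crypt gene Ascl2, of the same list as Prom1, by 0.73 without being called, and the cell cycle genes Mcm3 and Aurkb by 0.77 and 0.69. The interferon-induced Ifit2 and Ifit3 differed by -0.37 and -0.45, and 12 of 13 genes of their list lay below 0 (median -0.17). The early response genes Fosb and Egr1 differed by 0.70 and 0.74, and the glucocorticoid target Zbtb16 and the fasting-induced kinase gene Pdk4 by 0.46 and -0.74. Alpi, the other intestinal alkaline phosphatase gene, differed by 0.46 ± 0.19 (limma adjusted p = 0.289).

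The lists differed in how evenly the 3 mixed groups carried them. The neck and Brunner gland median was 5.41 in WT IIAEK, 3.62 in KO vehicle and 4.76 in KO IIAEK, and the drug metabolism median was -0.78, -0.27 and -0.76. For smooth muscle genes it was 0.38, -0.19 and 1.48, and for pancreas genes 0.70, -2.03 and -0.49. In the fitted differences, 13 of 14 smooth muscle genes lay above 0 (median 0.54) and all 28 pancreas genes tested below 0 (median -0.50), while the medians within the 3 groups had both signs, and 0 members of either list were called. These within-group values set 1 array against 2 and have no test.

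**Figure D5:**
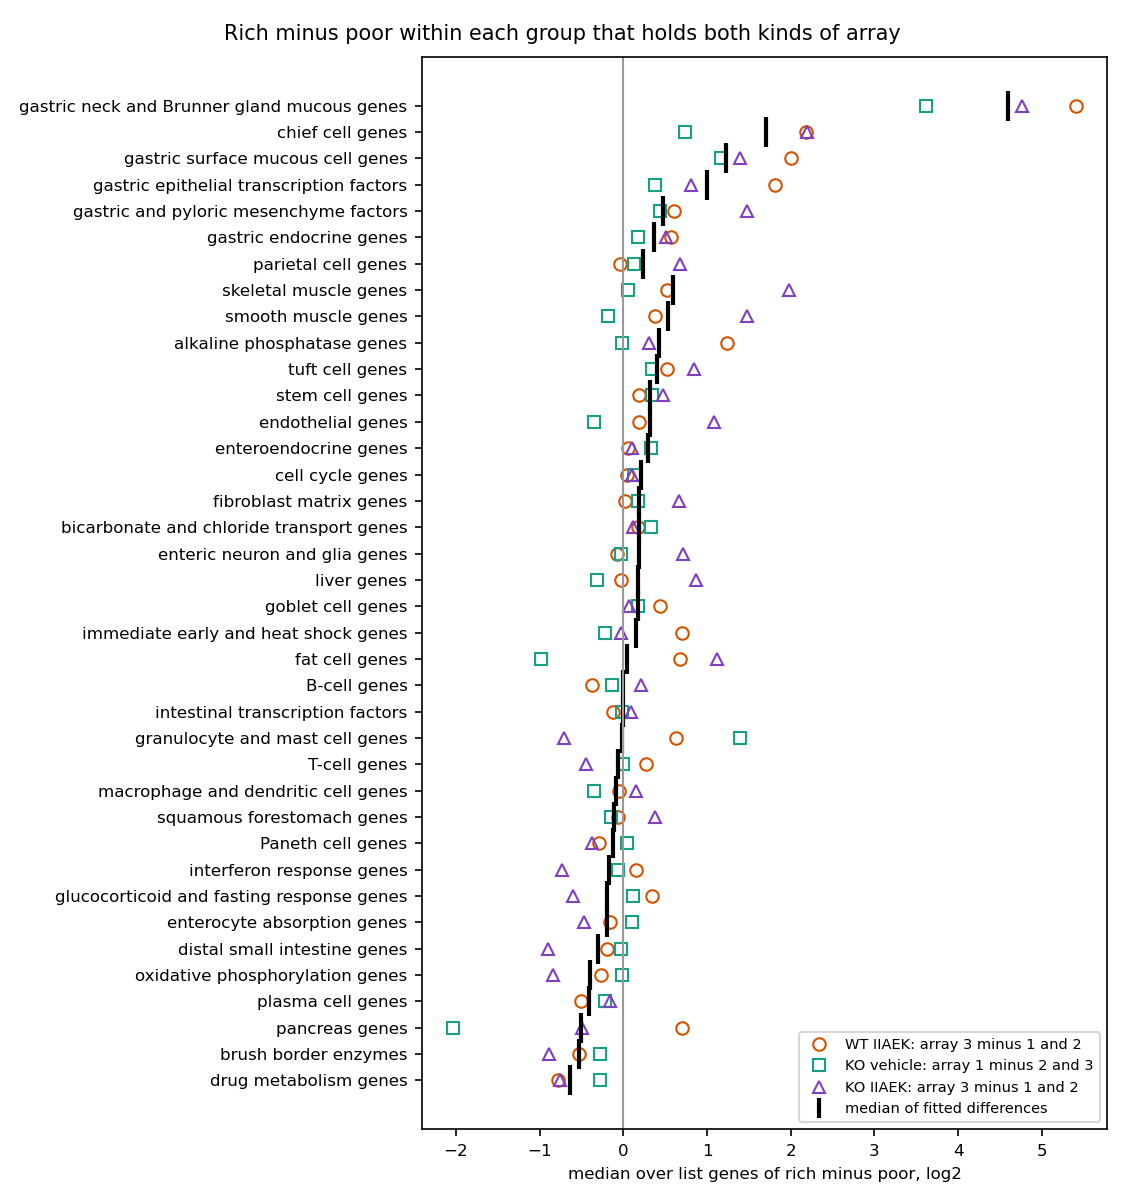
Median over each list of the rich-minus-poor difference (x axis, log2) within WT IIAEK, KO vehicle and KO IIAEK (coloured symbols), with the median of the fitted differences as a black bar, for the lists with at least 3 genes tested. The neck and Brunner gland list lies between 3.62 and 5.41 in all 3 groups, while pancreas genes spread from -2.03 to 0.70.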

How the data were processed

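Duodenal RNA of 12 mice, 3 per group, was measured on one-colour Agilent arrays. The deposited scanner files were written by Feature Extraction 10.7.3.1, per the file headers, and hold background-subtracted processed intensity, not scaled between arrays. The authors' deposited table holds log2 values whose making is not stated; it matched log2 processed intensity scaled to each array's 75th percentile and centred per probe (correlation at least 0.999996). Its column medians were -0.07, -0.08 and 0.13 for WT vehicle, -0.06, 0.04 and 0.07 for WT IIAEK, -0.05, -0.09 and 0.09 for KO vehicle, and 0.12, -0.04 and 0.08 for KO IIAEK.

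Control spots (3671 of 62976) and outlier spots were left out, 56583 probes were kept, and the RefSeq table of GRCm38.p6 named 32978 of them. Probes were kept if well above background on each of the 3 arrays of some study group, and the brightest probe stood for a gene. No study group was all poor, so a gene could pass through the all-rich WT vehicle group alone. The 75th percentile of intensity was 195 to 465 per array, without saturated spots, and the number of arrays limits the precision.

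The model (limma 3.58.1 in R 4.3.3, with eBayes fitted along an intensity trend) had the 4 groups and a rich term, fitted to all 12 arrays, with Benjamini-Hochberg adjustment over 26103 features. The script was tested on simulated data. The members, lists and tests were chosen with earlier results of these data known. Named are all measured genes of the stomach lists by value or range, outside them the called genes with the 12 highest and the 12 lowest differences, or fewer, members of the other lists with the smallest p, and Akp3. Alb, Fga, Car2, Muc2, Cdx2, Lgr5, Dclk1, Trpm5 and the other Mup genes were named after their values were seen. Alternatives in background correction, scaling, filter, probe choice, slide, replicate number, covariates and arrays were tried. The normexp alternative used the median raw signal. Whether replicate numbers in the titles pair the samples was not settled.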

Additional observations from a re-analysis of the deposited data

Results flagged for a closer look

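In 82 series of list means over the 6 rich or the 6 poor arrays, 9 held an array far from the other 5 by Dixon's test, and chance alone marks about 1 in 20. Among the 9 was the 4-gene mean of WT IIAEK 1 (-2.11, other poor arrays -4.43 to -3.81). That mean made the split, so this flag is not read. WT IIAEK 2 had the highest brush border mean of the poor arrays (4.43, others 4.22 to 4.26) and the lowest cell cycle mean (1.17, others 1.43 to 1.57). WT IIAEK 1 was high among them in B-cell genes (-1.30, others -2.35 to -2.04), and KO vehicle 2 in liver genes (-0.80, others -1.77 to -1.42). Among the rich arrays, WT vehicle 1 was low in pancreas genes (1.87, others 6.20 to 8.21) and KO IIAEK 3 in distal small intestine genes (-0.73, others -0.06 to 0.21). WT vehicle 3 was high among them in liver genes (0.80, others -1.67 to -0.86) and red cell genes (3.24, others 0.99 to 1.27).

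The rich-minus-poor difference itself differed between WT IIAEK, KO vehicle and KO IIAEK for 824 features by an interaction test in limma (adjusted p under 0.05), with 1 rich array per group, fitted to the 9 arrays of these groups, so that the spread comes from the 3 poor pairs alone, and with genes at background on the poor arrays included. Among the genes named here, Ppy, pancreatic polypeptide, differed by 2.62, -6.08 and -3.90 in these groups (limma adjusted p = 0.00707). Psapl1 differed by 6.28, 2.73 and 5.47 (0.0355). Gast (0.0429) and Psca (0.0371) were also marked, but neither was well above background on any poor array, so their differences within groups have no measured size and these p-values are not read. On the rich arrays of the 3 groups Gast stood at 2.04, -1.80 and 1.86 and Psca at 2.06, -1.71 and 1.45. Ppy was well above background on all 6 poor arrays but on only 4 of the 6 rich ones. Its lowest rich levels were on WT vehicle 1 (-7.52) and KO vehicle 1 (-5.36). The size of the Ppy difference in KO vehicle is thus uncertain. Aldh3a1, an aldehyde dehydrogenase, differed by 1.87, -1.29 and 1.15 (0.0335), Msln, mesothelin, by -1.85, -3.53 and 1.26 (0.0341), Pyy, peptide YY, by 2.84, -0.03 and 0.51 (0.0355) and Alppl2, a neighbour of Akp3, by 1.84, -0.40 and 1.02 (0.0409). In KO vehicle the rich array was on slide 1 and its mates on slide 2, and in WT IIAEK and KO IIAEK the reverse held. A slide effect therefore cannot be told apart here from a difference between KO vehicle and the IIAEK groups. The part of slide could not be tested in this fit. None of its p-values is read as a difference due to genotype or treatment.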

How the results depend on the processing

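The counts of 231 higher and 15 lower features moved with the processing, and the cause was not tested. Both counts were 153 and 5 with normexp, 131 and 9 with probes well above background on all 12 arrays, 386 and 152 without group terms, 135 and 6 with only the 3 mixed groups and 89 and 8 within slide 2. The lower count alone moved to 32 with slide as a block (295 higher, 229 and 12 shared with the main lists), to 56 with the 4-gene mean as covariate and to 86 within slide 1. The fits within a slide had no group terms. There the split cannot be told apart from treatment (slide 1) or from KO vehicle against the other groups (slide 2). With the replicate number as a block, 131 and 1 were called. Whether that number pairs the samples was not settled. Of 18 same-number pairs, 11 correlated above 0.1 (from -0.27 to 0.69), and 5 of 12 arrays correlated best with their own number. Leaving out each array gave 96 to 2908 higher and 1 to 3637 lower features, both maxima without KO vehicle 1. Added after seeing the data, leaving out WT vehicle 1 and KO IIAEK 3 together gave 97 and 4, and leaving out KO vehicle 1 with slide as a block gave 64 and 15. Of the 246 called features, 0 had the opposite sign under any of the 30 alternatives that tested them. Each array was left out in turn for 32 called genes, those chosen by the naming rule outside the stomach lists. Of these, 13 were called every time, including Teddm3, Psapl1, Spdef and Ttr. The rest of the 13 were Mucl3, Nkx6-2, Cysrt1, Mup1, Mup17, Mup18, Mup19, Mup20 and Mup21. These passed the filter through WT vehicle alone, so their higher level was partly fixed by it. Genes below background on poor arrays have only a lower bound of their fold.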
